A study of Mus musculus with 90 samples.

Results

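Psmb8, Psmb9 and Psmb10 encode the inducible catalytic subunits of the immunoproteasome. Psme1 and Psme2 encode the subunits of its interferon-inducible activator, and Psmb5, Psmb6 and Psmb7 encode the constitutive catalytic counterparts. These genes were picked by symbol and by no measured value, although earlier results of these data were known. They are 8 of the 53697 genes counted. Expression was measured in YUMM2.1 cells, an established mouse melanoma line, and in CT26 cells, an established line from a mouse colon carcinoma. The assay was 3′ digital gene expression, in which reads are taken from the 3′ ends of transcripts. Each line gave 15 groups of 3 replicates, so 90 samples in all, and each tumour type was represented by 1 line. Naive cells, which had no earlier exposure, were collected as controls in BSA or 2 h and 24 h after 50 IU/mL IFNγ. Chronic cultures held in 50 IU/mL IFNγ for 1, 2 or 3 weeks were collected without rechallenge or 2 h and 24 h after fresh IFNγ. Control cultures in BSA without IFNγ were collected at each of these weeks.

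The proteasome cuts cellular proteins into peptides, and its proteolytic sites sit on beta subunits. In cells exposed to interferon, Psmb8, Psmb9 and Psmb10 are built into new particles in place of Psmb5, Psmb6 and Psmb7 respectively. The activator formed by Psme1 and Psme2 caps the core particle and opens its gate. The resulting immunoproteasome yields more peptides with the carboxyl-terminal residues favoured by MHC class I molecules. The TAP transporter, encoded by Tap1 and Tap2, carries peptides into the endoplasmic reticulum.

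By GENCODE M21 on GRCm38, Psmb8 lies at chr17:34197721-34201454 on the plus strand and Psmb9 at chr17:34181987-34187764 on the minus strand, on either side of Tap1. The start of Psmb9 and that of Tap1 are 211 bases apart on opposite strands, and their gene spans overlap there. This is at the ends away from the 3′ ends that were read, and the strand setting of the counting is not given in the sources used here. Psmb10 lies at chr8:105935735-105938444 (minus), Psme1 at chr14:55578123-55581529 (plus) and Psme2 at chr14:55587441-55591113 (minus). The starts of Psme1 and Psme2 are 12990 bases apart. Psmb5 lies at chr14:54614119-54618022 (minus), Psmb6 at chr11:70525367-70527858 (plus) and Psmb7 at chr2:38588036-38644087 (minus).

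RefSeq start sites on GRCm38.p6 gave a window of 300 bases, 250 before and 50 after the start, for 7 of the 8 genes, all but Psmb7. The windows were searched on both strands for the letters of a gamma-activated site (GAS, TTCNNNGAA). They were also searched for those of an interferon-stimulated response element (ISRE, here GAAA, any 2 bases, then GAAA, to which interferon regulatory factors bind). The GAS letters were found in the window of Psmb8 and the ISRE letters in that of Psme1, on the minus strand. Neither was found in the windows of Psmb9, Psmb10, Psme2, Psmb5 and Psmb6. Of 27025 such windows over all genes, 8.47% held the GAS letters and 3.49% the ISRE letters, and no match overlapped another motif here. A match describes letters only, and its absence from these windows says nothing about a factor.

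The windows of 4 genes are shown from 5′ to 3′ on the strand of the gene, with the matched letters in capitals. Psmb8 (chr17:34197945-34198244, GAS letters starting at -97 from the start site) and Psme1 (chr14:55578244-55578543, ISRE letters starting 9 bases after it) are shown because they hold a match. Psmb9 (chr17:34187281-34187580) is shown because 275 of its bases also belong to the window of Tap1, and Psmb5 (chr14:54617946-54618245) as a constitutive counterpart.
Psmb8: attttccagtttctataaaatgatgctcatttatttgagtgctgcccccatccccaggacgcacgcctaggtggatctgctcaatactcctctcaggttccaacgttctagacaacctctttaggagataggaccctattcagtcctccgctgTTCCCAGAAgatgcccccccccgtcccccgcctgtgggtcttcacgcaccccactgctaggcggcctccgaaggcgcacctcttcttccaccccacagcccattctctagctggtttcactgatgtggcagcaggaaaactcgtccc
Psme1: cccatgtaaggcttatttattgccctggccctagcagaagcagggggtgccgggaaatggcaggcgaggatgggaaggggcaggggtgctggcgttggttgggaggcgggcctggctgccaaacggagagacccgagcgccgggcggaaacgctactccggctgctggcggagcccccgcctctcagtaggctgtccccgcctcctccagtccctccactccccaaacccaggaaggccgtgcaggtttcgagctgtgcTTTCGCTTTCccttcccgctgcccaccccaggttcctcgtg
Psmb9: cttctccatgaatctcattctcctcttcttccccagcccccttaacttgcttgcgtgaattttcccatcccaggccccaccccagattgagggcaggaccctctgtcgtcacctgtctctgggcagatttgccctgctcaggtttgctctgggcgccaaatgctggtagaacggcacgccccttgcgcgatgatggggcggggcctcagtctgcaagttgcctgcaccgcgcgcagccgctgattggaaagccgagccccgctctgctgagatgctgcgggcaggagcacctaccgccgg
Psmb5: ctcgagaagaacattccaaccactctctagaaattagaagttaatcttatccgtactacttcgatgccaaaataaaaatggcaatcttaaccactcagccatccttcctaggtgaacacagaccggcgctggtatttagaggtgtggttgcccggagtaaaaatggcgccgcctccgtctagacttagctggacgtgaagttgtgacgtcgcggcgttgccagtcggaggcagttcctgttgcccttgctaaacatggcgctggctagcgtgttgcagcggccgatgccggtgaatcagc
The RefSeq start used lies 474 bases inside the GENCODE span of Psmb8, 371 inside that of Psme1, 434 inside that of Psmb9 and 27 inside that of Psmb5, since other annotated transcripts start further upstream.

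Samples of YUMM2.1 held 274719 to 3161276 counts (median 1403265), and those of CT26 held 295157 to 2205285 (median 1318011). Levels are given as CPM, which edgeR scales to the total count of a sample and its TMM factor, except that CPM of the markers use the total alone. Removal of genes with low counts left 9589 to test for YUMM2.1 and 8516 for CT26, and all 8 genes passed in both lines. Replicate 3 of the YUMM2.1 cultures at 3 weeks in IFNγ (274719 counts) and of the CT26 cultures at 1 week (322486) and 3 weeks (295157) in IFNγ had under 25% of their line's median total. Several results that include them are also given without them. The pair balances, the 2 h rechallenges and the changes on rechallenge after 3 weeks are given only with them. Sox10, of the melanocyte lineage, was detected in every YUMM2.1 sample (11.7 to 64.5 CPM) and at 0 in CT26, but Tyrp1 was at 0 in YUMM2.1 and Pmel and Mlana had at most 3 counts in any sample. Mitf and Dct of the same lineage had lower medians in YUMM2.1 (2.03 and 0.64 CPM) than in CT26 (2.58 and 1.94 CPM). Krt18 and Krt20 were detected in every CT26 sample (8.1 to 24.8 and 30.7 to 120.0 CPM), whereas Krt19, Epcam, Cdh1 and Vil1 were at 0 there. Of 7 haematopoietic markers, which mark cells with constitutive immunoproteasome, Cd3e and Adgre1 were at 0 in both lines. The list summed to 0 to 25.8 CPM in YUMM2.1 and 1.26 to 16.2 CPM in CT26, with Cd68 the highest of them. Near-identical copies could take reads from Psme2 and the constitutive genes. Psme2b held 91 counts beside 47777 of Psme2 in YUMM2.1 and 140 beside 53155 in CT26, and no copy of the other genes held more than 38.

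Untreated cells were compared first, to establish the level from which each gene responded. The inducible genes were lower in YUMM2.1 than in CT26, whereas Psmb6 was higher. The CPM below were scaled within each line, whereas the log2 differences come from a joint fit of both lines with its own scaling. Sizes of the log2 differences therefore do not follow exactly from these CPM. Psmb8 was at 0, 1.22 and 0 CPM in the 3 untreated YUMM2.1 samples and at 6.38, 1.25 and 4.75 CPM in CT26. Psmb9 was at 1.64, 1.22 and 0 CPM in YUMM2.1 and at 1.42, 1.87 and 6.54 CPM in CT26. These are 1 count of Psmb8 and 4 of Psmb9 over the YUMM2.1 group, and the Psmb9 values of the lines overlap. Psmb10 was at 43.1, 53.7 and 64.4 CPM in YUMM2.1 and 75.2, 80.6 and 76.7 CPM in CT26. Psme1 was at 32.7, 29.3 and 30.2 CPM in YUMM2.1 and 64.5, 64.3 and 76.1 CPM in CT26. Psme2 was at 219.9, 239 and 248 CPM in YUMM2.1 and 336, 311 and 285 CPM in CT26. For Psmb10, Psme1 and Psme2 every YUMM2.1 sample lay below every CT26 sample. The log2 differences were -0.71 ± 0.15 (SE; edgeR quasi-likelihood test with Benjamini-Hochberg adjustment, adjusted p = 3.58e-05), -1.32 ± 0.18 (adjusted p = 4.05e-09) and -0.58 ± 0.12 (adjusted p = 6.26e-05). Psmb8 and Psmb9 were called lower too (adjusted p = 2.91e-04 and 0.0187), with fitted differences that rest on the few counts given. Psmb6 was at 1121, 1326 and 1185 CPM in YUMM2.1 and 450.2, 362 and 379.8 CPM in CT26, a log2 difference of 1.42 ± 0.13 (adjusted p = 4.17e-16) without overlap. Psmb5 and Psmb7 were not called by edgeR (-0.21 ± 0.19 and -0.27 ± 0.14), but Psmb7 was by DESeq2 (-0.32, adjusted p = 0.0243) and with only the compared groups fitted (adjusted p = 0.0259). Between these lines 46.0% of the 10339 genes tested jointly were called, beside 6 of these 8. Psmb9 rests on replicate 3, without which the difference was -0.34 (adjusted p = 0.809). Since each tumour type is 1 line, line and tumour type cannot be told apart.

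Naive cells were then followed for 2 h and 24 h to see how soon the genes respond. At 2 h none of the 8 genes was called in either line, beside 0.240% of genes called in YUMM2.1 and 0.235% in CT26. The edgeR test gave 3 of the 8 an unadjusted p under 0.05 in each line, all with higher estimates, and DESeq2 called 0. These were Psmb10, Psme1 and Psme2 in YUMM2.1 and Psmb9, Psmb10 and Psme2 in CT26. The 2 h and 24 h comparisons share the untreated samples. Psmb10 stood at 76.9, 73.9 and 86.8 CPM against 43.1, 53.7 and 64.4 CPM in YUMM2.1 (log2 0.56 ± 0.16, adjusted p = 0.241). In CT26 it stood at 94.2, 100.4 and 93.5 against 75.2, 80.6 and 76.7 CPM (log2 0.31 ± 0.12). In both lines its 3 treated samples lay above all 3 controls, although the test was not passed. The transcription factor Irf1, itself inducible by interferon, had already risen by log2 4.07 ± 0.21 in YUMM2.1 (adjusted p = 2.21e-19) and 3.46 ± 0.22 in CT26 (adjusted p = 1.79e-15).

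At 24 h all 5 inducible genes had risen in both lines and none of the 3 constitutive genes was called. Psmb8, the inducible replacement of Psmb5, stood at 18.0, 26.6 and 29.3 CPM in YUMM2.1 against 0, 1.22 and 0 CPM in the controls. This was 111 counts against 1, a ratio of 111 with a 95% counting interval of 19.4 to 4405, and the call was passed (adjusted p = 3.30e-10). In CT26 it stood at 55.4, 18.7 and 58.0 CPM against 6.38, 1.25 and 4.75 CPM, a log2 fold change of 3.47 ± 0.35 (adjusted p = 2.41e-10). Replicate 2 lay below the other treated samples but above every control. Psmb9, the replacement of Psmb6, reached 70.8, 91.2 and 85.3 CPM in YUMM2.1 from 1.64, 1.22 and 0, 353 counts against 4, a ratio of 87.9 (34.0 to 324, adjusted p = 3.70e-18). In CT26 it reached 105, 114 and 122 CPM from 1.42, 1.87 and 6.54 CPM, a 32.8-fold rise (log2 5.04 ± 0.29, adjusted p = 2.48e-18). Without replicate 3, whose control held the highest of these control values, the log2 fold change was 5.96. Treated and control samples did not overlap for either gene. Counting intervals and limits cover counting error only, and each library pools many cells, so more responding cells and more RNA per cell cannot be told apart.

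Psmb10, the replacement of Psmb7, had 44 or more counts in every control sample. It rose from 43.1, 53.7 and 64.4 CPM to 415, 441 and 397 CPM in YUMM2.1, 7.79-fold (log2 2.96 ± 0.15, adjusted p = 9.20e-21). In CT26 it rose from 75.2, 80.6 and 76.7 to 335, 396 and 387 CPM, 4.82-fold (log2 2.27 ± 0.12, adjusted p = 9.46e-20). The activator genes rose with it. Psme1 went from 32.7, 29.3 and 30.2 to 143, 194 and 209 CPM in YUMM2.1, 5.91-fold (log2 2.56 ± 0.18). The CT26 samples went from 64.5, 64.3 and 76.1 to 202, 202 and 226 CPM, 3.09-fold (log2 1.63 ± 0.15). Psme2 went from 219.9, 239 and 248 to 1201, 1465 and 1286 CPM in YUMM2.1, 5.59-fold (log2 2.48 ± 0.12). In CT26 it went from 336, 311 and 285 to 1513, 1552 and 1439.8 CPM, 4.83-fold (log2 2.27 ± 0.11). The adjusted p for these 4 changes lay between 5.89e-21 and 9.36e-12, and every treated sample lay above every control. The median log2 fold change of the 5 inducible genes was 2.96 in YUMM2.1 and 2.27 in CT26, beside 0.02 and -0.02 over all genes tested. Of all genes, 0.886% were called in YUMM2.1 and 2.04% were called in CT26.

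None of the constitutive genes passed the test at 24 h. Psmb5 stood at 107, 141 and 199 CPM at 24 h against 168, 106 and 151 CPM in YUMM2.1 controls, and at 59.4, 109 and 148 against 147, 146 and 149 CPM in CT26. Its CT26 replicates spread widely at 24 h while the controls were tight, and the log2 difference of -0.40 ± 0.20 was not called (adjusted p = 0.435). Psmb6 in CT26 was at 535, 527 and 488 CPM against 450.2, 362 and 379.8 CPM, above every control, with a log2 difference of 0.37 ± 0.12 that also missed the threshold (adjusted p = 0.0864). It passed with DESeq2 (0.39, adjusted p = 0.0194) and with library totals in place of TMM factors (adjusted p = 0.0175). For the other comparisons the 95% intervals of the log2 difference were -0.28 to 0.45 for Psmb5 and -0.31 to 0.16 for Psmb6 in YUMM2.1. For Psmb7 they were -0.16 to 0.39 in YUMM2.1 and -0.36 to 0.10 in CT26.

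**Figure D1:**
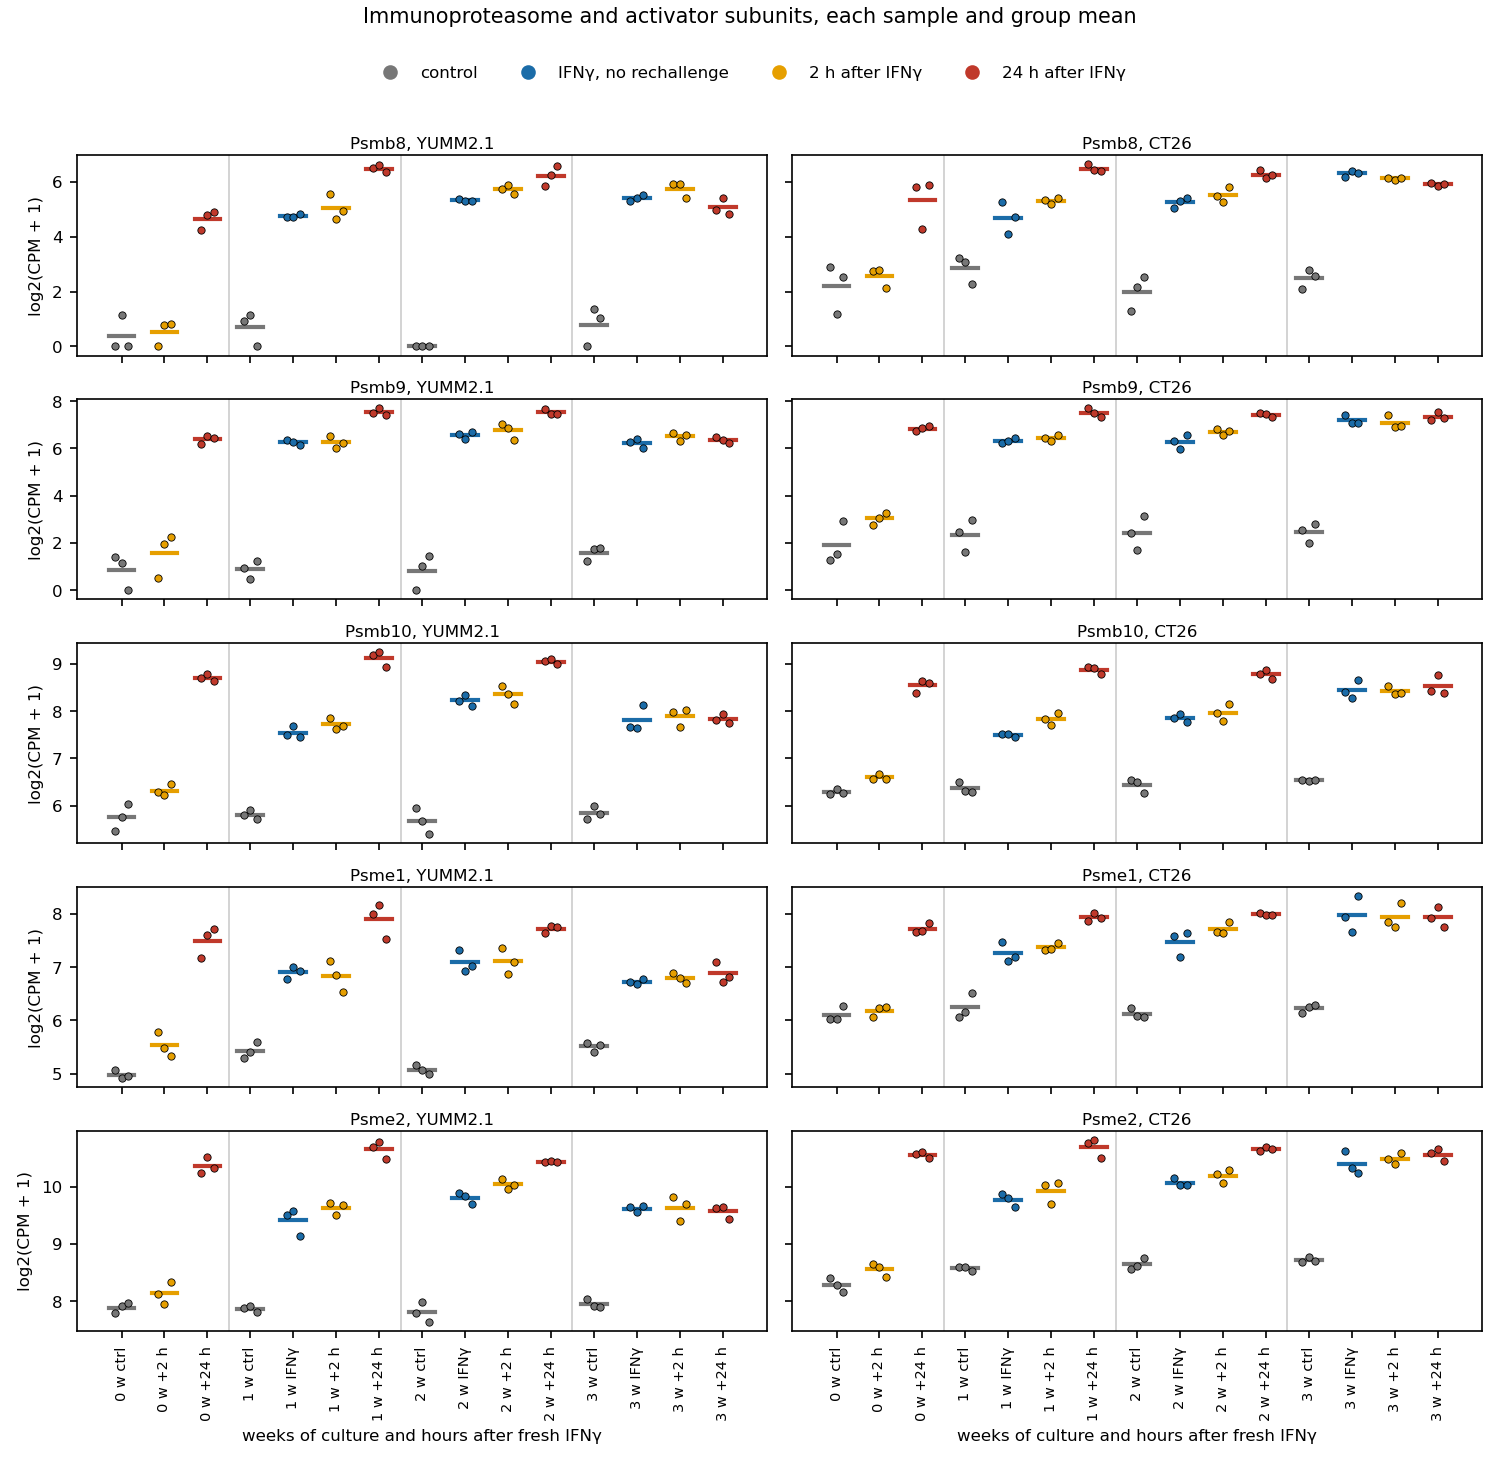
Level of Psmb8, Psmb9, Psmb10, Psme1 and Psme2 in log2(CPM + 1) for each of the 15 groups of YUMM2.1 (left) and CT26 (right), with 1 point per sample, a bar at the group mean and colours for control, IFNγ without rechallenge, and 2 h or 24 h after fresh IFNγ. At 1, 2 and 3 weeks the controls lie below the cultures in IFNγ of the same week, and naive cells rise between 2 h and 24 h. The 24 h points stand above the points without rechallenge at 1 and 2 weeks but not at 3 weeks.

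The balance within each pair, the log2(CPM + 1) of the inducible gene less that of the gene it replaces, is given per sample group as mean ± SD (n = 3) without a test. Since the genes may be captured unequally, only its changes are read. Psmb10 less Psmb7 moved from -2.08 ± 0.43 in untreated YUMM2.1 to 0.75 ± 0.26 at 24 h, and from -1.66 ± 0.06 to 0.75 ± 0.18 in CT26. Psmb9 less Psmb6 moved from -9.39 ± 0.75 to -3.79 ± 0.28 in YUMM2.1, while in CT26 it moved from -6.73 ± 0.97 to -2.18 ± 0.17. Psmb8 less Psmb5 moved from -6.75 ± 1.00 to -2.53 ± 0.18 in YUMM2.1. For CT26 the values were -5.02 ± 0.89 and -1.30 ± 1.19, where the SD at 24 h was the widest of the pairs. At 3 weeks in IFNγ the balances of CT26 were 0.12 ± 0.43 for Psmb8 less Psmb5, -1.53 ± 0.03 for Psmb9 less Psmb6 and 0.68 ± 0.29 for Psmb10 less Psmb7. In the 3-week controls they were -4.18 ± 0.36, -6.20 ± 0.42 and -1.46 ± 0.11. In YUMM2.1 they were -1.70 ± 0.17, -3.91 ± 0.05 and 0.01 ± 0.47, beside -6.81 ± 0.68, -8.46 ± 0.37 and -2.24 ± 0.05. The YUMM2.1 samples in IFNγ had Psmb10 less Psmb7 at -0.36, -0.15 and 0.54, the last from the low-depth library. All 3 balances thus stood higher in IFNγ than in control cultures by more than the SD of either group in both lines. In YUMM2.1 the control values of Psmb8 and Psmb9 depend on the added 1 CPM.

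Chronic cultures were compared with control cultures of the same age to ask whether the genes stayed elevated under continuous IFNγ. All 5 inducible genes were higher at 1, 2 and 3 weeks in both lines. None of the constitutive genes was called by edgeR with TMM factors at any of these weeks. In YUMM2.1, Psmb8 stood at 25.3, 25.5 and 27.7 CPM at 1 week against 0.92, 1.19 and 0 in the controls, 109 counts against 5, a ratio of 39.2 (16.3 to 123). At 2 weeks it stood at 40.5, 38.6 and 38.3 CPM, while all 3 controls were at 0, so that it was at least 44.0-fold higher against a floor of 3 counts over the control group. At 3 weeks it stood at 38.5, 42.0 and 45.6 CPM against 0, 1.56 and 1.03 CPM (log2 5.38 ± 0.42, adjusted p = 2.68e-13). The 3 treated groups thus held Psmb8 between 25.3 and 45.6 CPM, with no overlap with any control. Against the controls from the start of the culture, with the 1 count of Psmb8 and 4 of Psmb9 given above, the fitted log2 values at 3 weeks were 7.002 for Psmb8 and 6.21 for Psmb9. In CT26 the same gene stood at 37.1, 16.2 and 25.3 CPM at 1 week, 32.2, 38.9 and 42.2 CPM at 2 weeks and 72.0, 83.4 and 80.3 CPM at 3 weeks. Its log2 fold change over control cultures of the same age was 2.17 ± 0.35, 3.58 ± 0.39 and 4.01 ± 0.32 in turn (adjusted p = 6.95e-05, 6.42e-09 and 3.02e-13).

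Psmb9 stood in YUMM2.1 at 79.9, 77.1 and 70.3 CPM at 1 week, 96.0, 83.6 and 103 CPM at 2 weeks and 76.4, 82.1 and 63.1 CPM at 3 weeks, while no control sample exceeded 2.41 CPM. In CT26 it stood at 73.4, 79.5 and 85.4 CPM at 1 week, 78.6, 61.7 and 94.2 CPM at 2 weeks and 170.4, 135 and 134 CPM at 3 weeks. Every 3-week sample lay above every sample of the earlier weeks in IFNγ without rechallenge. The log2 fold change of Psmb9 over control cultures was 4.01 ± 0.29, 3.99 ± 0.29 and 4.94 ± 0.26 in CT26. In YUMM2.1 it was 6.27 ± 0.33 at 1 week and 5.15 ± 0.29 at 3 weeks, and at 2 weeks 453 counts stood against 3, a ratio of 108 (36.9 to 528). Psmb10 rose 3.4-, 5.85- and 3.85-fold over control at 1, 2 and 3 weeks in YUMM2.1. In CT26 it rose 2.22-, 2.65- and 3.74-fold. In YUMM2.1 its samples were at 179, 206 and 175 CPM at 1 week, 295, 324 and 276 CPM at 2 weeks and 200.4, 198 and 280.4 CPM at 3 weeks. Replicate 3 at 3 weeks, the highest of its group, is the library of low depth.

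Psme1 and Psme2, the activator genes, were higher at each week in both lines. In YUMM2.1 the log2 fold change of Psme1 was 1.48 ± 0.16 at 1 week, 2.05 ± 0.18 at 2 weeks and 1.22 ± 0.17 at 3 weeks. That of Psme2 was 1.57 ± 0.12, 2.00 ± 0.12 and 1.67 ± 0.12. In CT26 the values were 1.02 ± 0.15, 1.37 ± 0.15 and 1.74 ± 0.15 for Psme1 and 1.21 ± 0.11, 1.43 ± 0.11 and 1.69 ± 0.11 for Psme2. At 3 weeks Psme1 was at 105, 101 and 109 CPM against 47.0, 41.7 and 45.5 CPM in YUMM2.1 and at 245, 201 and 321 against 69.6, 75.3 and 77.2 CPM in CT26. For both genes in all of these comparisons the 3 treated samples lay above the 3 controls, and the largest adjusted p was 7.70e-06. The median log2 fold change of the 5 inducible genes was 1.76, 2.55 and 1.94 at 1, 2 and 3 weeks in YUMM2.1. In CT26 it was 1.21, 1.43 and 1.90, beside medians of 0.00 to 0.02 over all genes in either line. Each median of the 5 is the value of Psmb10 or Psme2 and does not rest on the genes with few counts. The share of all genes called was 0.730%, 1.12% and 0.970% for YUMM2.1, against 0.728%, 1.67% and 7.23% for CT26.

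Without the libraries of low depth the inducible genes were again all called against control cultures, with log2 fold changes of 1.22 to 5.37 in YUMM2.1 at 3 weeks and 1.04 to 3.96 and 1.60 to 4.99 in CT26 at 1 and 3 weeks. Psmb10 at 3 weeks was 1.84 in YUMM2.1 and 1.82 in CT26. In CT26 at 1 week the calls of Psmb8 and Psme1 were not passed without replicate 1, where 1 of the 2 samples left in IFNγ is the low-depth library. The estimate was then 1.78 for Psmb8 (adjusted p = 0.294) and 0.78 for Psme1 (adjusted p = 0.231).

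The constitutive genes gave small differences of both signs at these weeks. Psmb5 had the 2 smallest adjusted p among them. It was at 139.9, 121 and 158 CPM against 189.5, 196 and 194 CPM at 3 weeks in YUMM2.1 (log2 -0.50 ± 0.18, adjusted p = 0.254). At 2 weeks in CT26 it was at 79.5, 70.3 and 108 against 148, 116 and 112 CPM (log2 -0.53 ± 0.20, adjusted p = 0.244). In both cases the 3 treated samples lay below the 3 controls, and the difference did not pass the test over all genes. Against the controls from the start of the culture Psmb5 was called lower in CT26 at 2 weeks (-0.75) and 3 weeks (-0.93). The other 4 estimates for Psmb5 ran from -0.41 to 0.18. The 6 estimates for Psmb6 ran from 0.01 to 0.11 and those for Psmb7 from -0.24 to 0.06. Scaled by library totals, Psmb6 was called higher in CT26 at 3 weeks (0.31, adjusted p = 0.0332). Over all 45 samples of a line Psmb6 varied from 814 to 1326 CPM in YUMM2.1, against 349.8 to 540.4 CPM for CT26. Its highest group mean was 1.21 and 1.30 times its lowest, in turn.

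**Figure D2:**
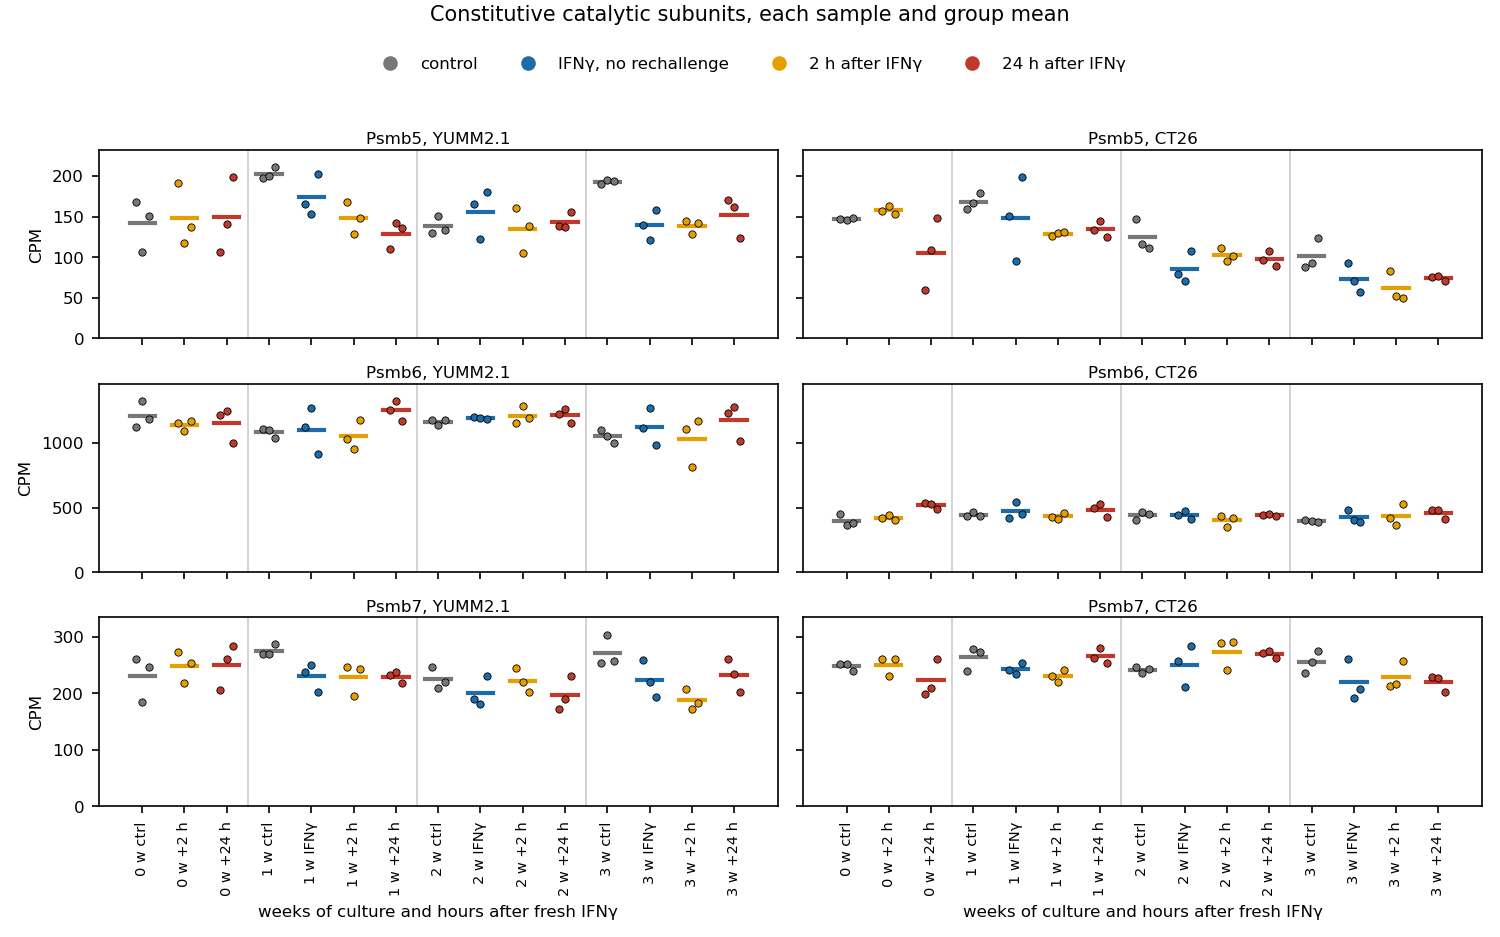
Level of Psmb5, Psmb6 and Psmb7 in CPM on axes from 0, for each of the 15 groups of YUMM2.1 (left) and CT26 (right), with 1 point per sample, a bar at the group mean and the same colours for control, IFNγ, and 2 h or 24 h after fresh IFNγ. None of the 3 genes was called by edgeR with TMM factors against control cultures of the same age. Psmb6 is higher throughout in YUMM2.1 (814 to 1326 CPM) than in CT26 (349.8 to 540.4 CPM).

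**Figure D3:**
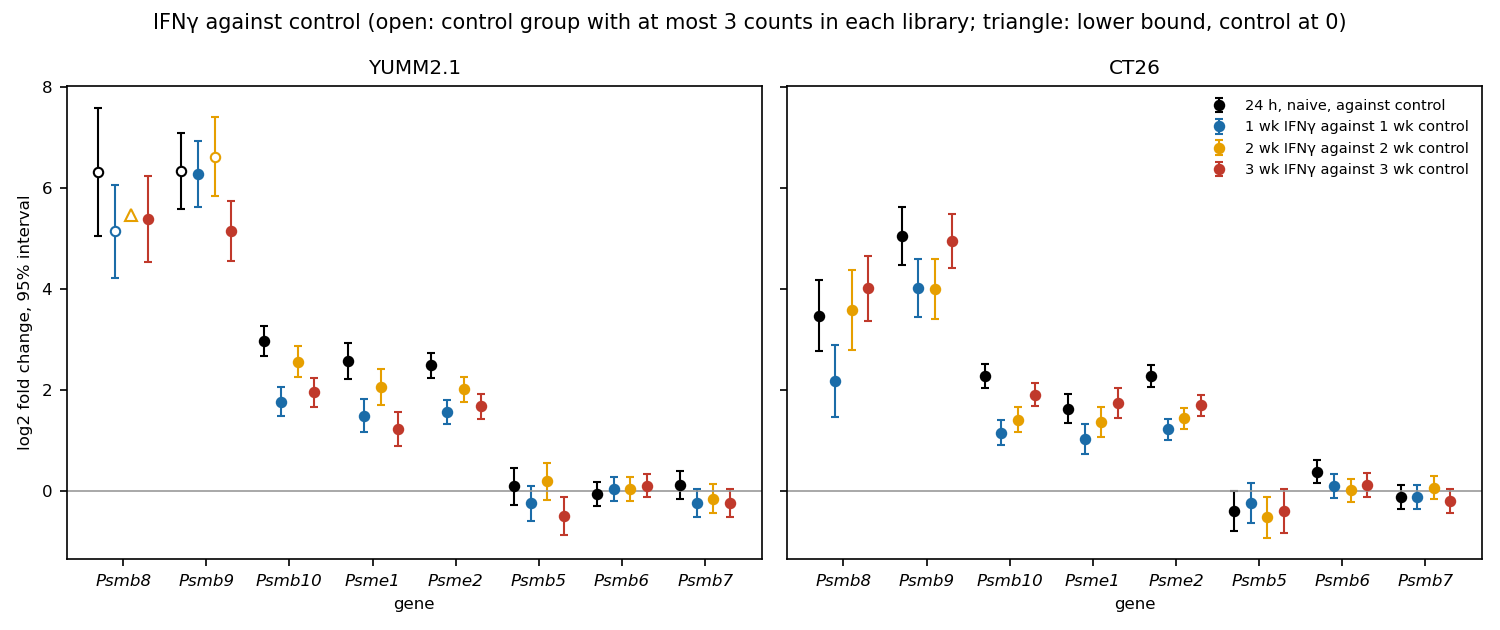
log2 fold change of the 8 genes over control, with 95% intervals from the edgeR fit, for naive cells at 24 h and for 1, 2 and 3 weeks of IFNγ against control cultures of the same age. Open symbols mark a control group with at most 3 counts in each library, whose fitted value depends on the added prior count. The triangle is the value of 5.46 for Psmb8 at 2 weeks, a bound set by a floor of 3 counts and not a 95% limit. The 5 inducible genes lie above 1 in every comparison and the intervals of the 3 constitutive genes lie within 1 of 0.

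Between 2 and 3 weeks in IFNγ, compared after the data had been seen, 4 of the 5 inducible genes rose further in CT26. None was called in YUMM2.1 (2 of the 8 genes at an unadjusted p under 0.05, 0 by DESeq2). In CT26, Psmb8, Psmb9, Psmb10 and Psme1 were higher at 3 than at 2 weeks, among 3.17% of genes called. The log2 differences were 1.03 ± 0.24, 0.91 ± 0.18, 0.59 ± 0.11 and 0.47 ± 0.14 in turn (adjusted p = 0.00887, 0.00148, 6.57e-04 and 0.0465). Psme2 went from 1135, 1041 and 1042 to 1575, 1277 and 1207 CPM without overlap and just missed the threshold in edgeR (log2 0.34 ± 0.10, adjusted p = 0.0538). It was called by DESeq2 (0.38, adjusted p = 0.00351) and with library totals (0.48, adjusted p = 1.12e-04). In YUMM2.1 the estimates for the 5 genes ran from -0.45 to 0.07, the lowest for Psmb10 (adjusted p = 0.29). Of all genes, 0.0730% were called there. Of these 4 CT26 calls, none was passed without replicate 1 and only that of Psmb10 without replicate 2, and that of Psme1 was also lost without replicate 3, with no filter and with only the compared groups. Without the low-depth library Psme1 was no longer called (0.33, adjusted p = 0.203) and Psme2 was (0.42, adjusted p = 0.0162). Whether the lines differed in this step was not tested.

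Fresh IFNγ was added to chronic cultures to ask how far the genes could still respond. After 2 h of rechallenge none of the 8 genes was called at 1, 2 or 3 weeks in either line by edgeR or DESeq2, with 0 or 1 of the 8 at an unadjusted p under 0.05 each time. The share of all genes called was 0.615%, 0.428% and 1.08% after these weeks in YUMM2.1. It was 0.376%, 0.305% and 0.0117% in CT26. The inducible genes ran from -0.18 to 0.47 on the log2 scale. Psmb10 after 1 week in CT26 had the smallest p, at 227, 207 and 247 against 183, 182 and 174 CPM (log2 0.33 ± 0.12, adjusted p = 0.362). With library totals it was called (adjusted p = 0.0238). Irf1 responded within these 2 h, by log2 2.74 ± 0.17, 1.90 ± 0.16 and 2.78 ± 0.19 after 1, 2 and 3 weeks in YUMM2.1. In CT26 it changed by 1.78 ± 0.21 after 1 week and 1.77 ± 0.18 after 2 weeks, but was not called after 3 weeks (0.46 ± 0.18, adjusted p = 0.577).

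After 24 h of rechallenge the estimated change of each of the 5 inducible genes was smaller after each further week of exposure in both lines. This order was not tested as a trend. The 2 h and 24 h comparisons share the samples without rechallenge. After 1 week all 5 rose in both lines (1.42% and 1.32% of all genes called in YUMM2.1 and CT26). Psmb8 went from 25.3, 25.5 and 27.7 to 89.3, 96.6 and 81.3 CPM in YUMM2.1 (log2 1.78 ± 0.27, adjusted p = 8.34e-06). In CT26 it went from 37.1, 16.2 and 25.3 to 99.0, 85.0 and 83.1 CPM (log2 1.66 ± 0.26, adjusted p = 3.22e-05). Psmb10 went from 179, 206 and 175 to 583, 605 and 486 CPM in YUMM2.1 (log2 1.57 ± 0.13, adjusted p = 1.78e-12). The CT26 samples went from 183, 182 and 174 to 486, 479 and 441 CPM (log2 1.38 ± 0.11, adjusted p = 1.97e-12). In both lines all rechallenged samples lay above all samples without rechallenge for these genes. The log2 changes of Psmb9, Psme1 and Psme2 were 1.26 ± 0.18, 1.01 ± 0.15 and 1.22 ± 0.12 in YUMM2.1. In CT26 they were 1.22 ± 0.19, 0.64 ± 0.14 and 0.92 ± 0.10, and the adjusted p of these 6 changes was at most 0.00514. In CT26, 3 of the 5 calls were passed without replicate 1 and 4 without replicate 2, Psme1 being lost in both, and all 5 without the low-depth library. Psme1 was also lost with only the compared groups (adjusted p = 0.0634).

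After 2 weeks all 5 inducible genes rose in YUMM2.1 and 4 of 5 in CT26 by edgeR, beside 0.615% and 0.658% of genes called. Psmb9 went from 96.0, 83.6 and 103 to 199, 172 and 176 CPM in YUMM2.1 (log2 0.94 ± 0.17, adjusted p = 0.00105). In CT26 it went from 78.6, 61.7 and 94.2 to 177, 174 and 162 CPM, again without overlap (log2 1.11 ± 0.17, adjusted p = 4.16e-05). Psmb10 changed by 0.82 ± 0.13 and 0.94 ± 0.10, Psmb8 by 0.99 ± 0.25 and 1.01 ± 0.23 and Psme2 by 0.63 ± 0.11 and 0.59 ± 0.10 in YUMM2.1 and CT26. Psme1 rose in YUMM2.1 (0.62 ± 0.15, adjusted p = 0.031). In CT26 it went from 191, 145 and 197 to 256, 252 and 250.2 CPM without overlap but missed the threshold in edgeR (log2 0.50 ± 0.13, adjusted p = 0.0567). DESeq2 called it (0.51, adjusted p = 0.0221), as did edgeR with library totals, with only the compared groups and without low-depth samples (adjusted p = 0.0204, 0.0428 and 0.0313). In YUMM2.1 this step rests on few samples, since 1, 2 and 3 of the 5 calls were passed without replicate 1, 2 and 3 respectively, and that of Psmb10 was among them each time. There the call of Psmb8 was also lost with library totals (adjusted p = 0.0571) and that of Psme1 with no filter (adjusted p = 0.0839). In CT26 the call of Psmb8 was lost without replicate 1 (0.83, adjusted p = 0.949) and without replicate 3 (adjusted p = 0.0509). After 3 weeks edgeR called none of the genes that passed the filter in either line (0% of those tested, with 351 in YUMM2.1 and 439 in CT26 at an unadjusted p under 0.05). With no filter it called 27 genes in YUMM2.1 and 37 in CT26, and DESeq2 called 1 and 0. Of the 8 genes DESeq2 called 0, and 0 had an unadjusted p under 0.05 in edgeR. Psmb10 stood at 225, 245 and 215 CPM after rechallenge against 200.4, 198 and 280.4 CPM in YUMM2.1. In CT26 it stood at 339.6, 433 and 335 against 338, 310.0 and 401 CPM, and the groups overlapped in both lines. The 95% intervals of its log2 change were -0.21 to 0.35 and -0.12 to 0.32. Its estimates after 2 weeks were 0.82 ± 0.13 and 0.94 ± 0.10, and the difference between these weeks was not tested. For Psmb8 the intervals after 3 weeks were -0.87 to 0.26 and -0.88 to 0.08. Its samples after rechallenge were at 60.9, 56.7 and 60.0 CPM in CT26, below the 72.0, 83.4 and 80.3 CPM without it.

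**Figure D4:**
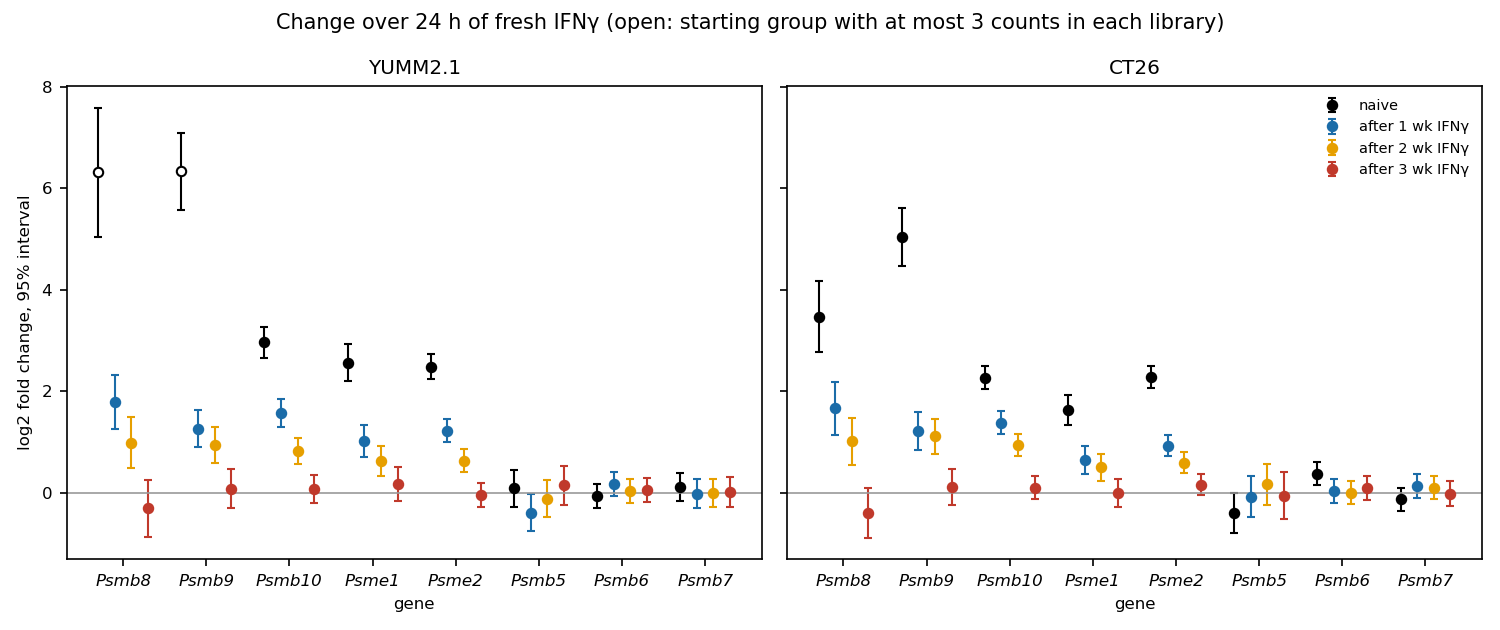
log2 change over 24 h of fresh IFNγ with 95% intervals from the edgeR fit for the 8 genes in YUMM2.1 (left) and CT26 (right), in naive cells against the untreated control and after 1, 2 and 3 weeks in IFNγ against the same culture without rechallenge; open symbols mark a starting group with at most 3 counts in each library. For the 5 inducible genes the naive change is above 1, the changes after 1 and 2 weeks lie between 0.50 and 1.78, and every interval after 3 weeks includes 0.

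The difference between the 24 h response after 3 weeks and that of naive cells was tested directly. The response of all 5 inducible genes was smaller after 3 weeks in both lines, and that of no constitutive gene differed (0.615% of genes called in YUMM2.1 and 1.20% in CT26). The log2 difference of the responses was -2.89 ± 0.20 for Psmb10, -2.40 ± 0.24 for Psme1 and -2.52 ± 0.17 for Psme2 in YUMM2.1. In CT26 it was -2.17 ± 0.16, -1.64 ± 0.20 and -2.12 ± 0.15 in the same order, and the largest adjusted p of these 6 was 6.39e-08. The starting levels differ between the 2 responses, since naive cells started from the untreated level and chronic cultures from one already raised. At 2 h the corresponding difference was called for none of the 8 genes (0.115% and 0.211% of genes called). In each line 1 of the 8 had an unadjusted p under 0.05 and DESeq2 called 0.

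Levels reached at 24 h were therefore also set side by side, in comparisons added after the data had been seen. After 1 week of exposure plus 24 h, Psmb8 and Psmb9 stood above their naive 24 h level in both lines (0.834% and 1.36% of all genes called). Psmb8 was at 89.3, 96.6 and 81.3 against 18.0, 26.6 and 29.3 CPM in YUMM2.1 (log2 1.81 ± 0.26, adjusted p = 1.50e-05). In CT26 it was at 99.0, 85.0 and 83.1 against 55.4, 18.7 and 58.0 CPM (log2 0.95 ± 0.24, adjusted p = 0.0295). Psmb9 was higher by log2 1.15 ± 0.18 in YUMM2.1 (adjusted p = 3.53e-05) and 0.66 ± 0.18 in CT26 (adjusted p = 0.0445). In CT26 the call was passed for neither gene without replicate 1 or without replicate 2. Psmb10 lay above every naive 24 h sample in both lines as well but was not called by edgeR (0.42 ± 0.13 and 0.33 ± 0.11, adjusted p = 0.119 and 0.142). DESeq2 called it in YUMM2.1 (0.43, adjusted p = 0.0357), and library totals gave a call in both lines (adjusted p = 0.0484 and 0.00617). After 3 weeks plus 24 h in YUMM2.1, Psmb10, Psme1 and Psme2 were lower than at 24 h in naive cells (0.813% of genes called). Psmb10 was at 225, 245 and 215 against 415, 441 and 397 CPM (log2 -0.87 ± 0.13, adjusted p = 4.18e-05). Psme2 was at 792, 802 and 691 against 1201, 1465 and 1286 CPM (log2 -0.79 ± 0.11, adjusted p = 2.54e-05). Psme1 differed by -0.65 ± 0.15 (adjusted p = 0.0174), a call lost without replicate 2 or 3 and with only the compared groups. Psmb8 and Psmb9 were not called there (0.39 ± 0.28 and -0.04 ± 0.18). In CT26 none of the 8 genes was called by edgeR or DESeq2, beside 2.48% of all genes and with 2 of the 8 at an unadjusted p under 0.05. The estimate for Psmb10 was -0.02 ± 0.11 with a 95% interval of -0.23 to 0.20.

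Control cultures were followed to see whether time in culture moved the genes. Between the start and 3 weeks without IFNγ none of the 8 genes was called in YUMM2.1 (2 at an unadjusted p under 0.05, 0 by DESeq2) and Psme2 alone in CT26, beside 0.521% and 0.916% of all genes. Psme2 went from 336, 311 and 285 to 409, 438 and 417 CPM without overlap, a 1.36-fold rise (log2 0.44 ± 0.11, adjusted p = 0.0249). The call was not passed without replicate 1, 2 or 3 in turn. Psmb5 gave estimates of opposite sign that did not pass the test, from 168, 106 and 151 to 189.5, 196 and 194 CPM in YUMM2.1 (log2 0.42 ± 0.17, adjusted p = 0.442). In CT26 it went from 147, 146 and 149 to 87.6, 93.0 and 124 CPM (log2 -0.52 ± 0.19, adjusted p = 0.209), and was called with only the compared groups (adjusted p = 0.026). Psme1 in YUMM2.1 was at 47.0, 41.7 and 45.5 CPM at 3 weeks against 32.7, 29.3 and 30.2 CPM at the start, above it in all samples, and was not called (log2 0.53 ± 0.19, adjusted p = 0.292).

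Whether the lines differed in their responses was tested in a joint fit of all 30 groups. For the naive 24 h response none of the 8 genes was called by edgeR or DESeq2, with 4 at an unadjusted p under 0.05 (0.0870% of 10339 genes called). Scaled by library totals in place of TMM factors, Psmb10 and Psme1 were called. The log2 difference, YUMM2.1 less CT26, was 0.91 ± 0.24 for Psme1 (adjusted p = 0.159), 0.66 ± 0.19 for Psmb10 (adjusted p = 0.312) and 0.19 ± 0.17 for Psme2 (95% interval -0.15 to 0.53). For the 3-week response none was called either, by edgeR or DESeq2, with 2 at an unadjusted p under 0.05 (0.106% of genes called), and the median over all genes was itself -0.10. The difference was -0.58 ± 0.23 for Psme1 (adjusted p = 0.593), -0.03 ± 0.19 for Psmb10 and -0.10 ± 0.17 for Psme2, the last near that median. Differences of Psmb8, Psmb9 and the constitutive genes are not given here for either response. Some of the genes at an unadjusted p under 0.05 are among these. A missed threshold does not show that the lines responded alike.

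The rest of the proteasome was counted by list, to see how far the change extended. The lists held 7 alpha ring genes, 4 other beta genes, 6 of the ATPase base, 15 other regulatory particle genes, 5 of assembly and maturation, 7 other regulators and 2 tissue-restricted genes, 46 in all. Of these, the filter kept 44 for YUMM2.1 and 43 for CT26, and Psma8 and Psmb11, the tissue-restricted ones, in neither. In naive cells at 24 h none of the 44 was called in YUMM2.1 (median log2 fold change 0.02). In CT26 (median 0.07) only Pomp, the maturation factor of the core particle, rose, by log2 0.44 ± 0.12 (adjusted p = 0.0462). Against control cultures of the same age none was called in YUMM2.1 at 1, 2 or 3 weeks, nor in CT26 at 1 or 3 weeks. At 2 weeks in CT26 only Psmd12, a lid subunit, fell (-0.49 ± 0.13, adjusted p = 0.0402). At 3 weeks the median of the list was 0.02 in YUMM2.1 and -0.08 in CT26, beside 1.94 and 1.90 for the 5 inducible genes. No gene of the lists was called after any rechallenge of 2 h or 24 h. In CT26 after 3 weeks plus 24 h, Psmd4, Psmd6, Psmd7 and Psmd12 of the regulatory particle were lower than in naive cells at 24 h, by log2 -0.52, -0.50, -0.43 and -0.62 (largest adjusted p = 0.026). These were among 2.48% of all genes called. Between the untreated lines 17 of the listed genes were called, 9 higher and 8 lower in YUMM2.1, beside 46.0% of all genes. The smallest adjusted p were those of Psma5, Psmc5, Psmc1, Psmc3 and Psmd5 (log2 -1.07 ± 0.12, 1.18 ± 0.14, 0.79 ± 0.12, 0.71 ± 0.11 and -1.36 ± 0.22).

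**Figure D5:**
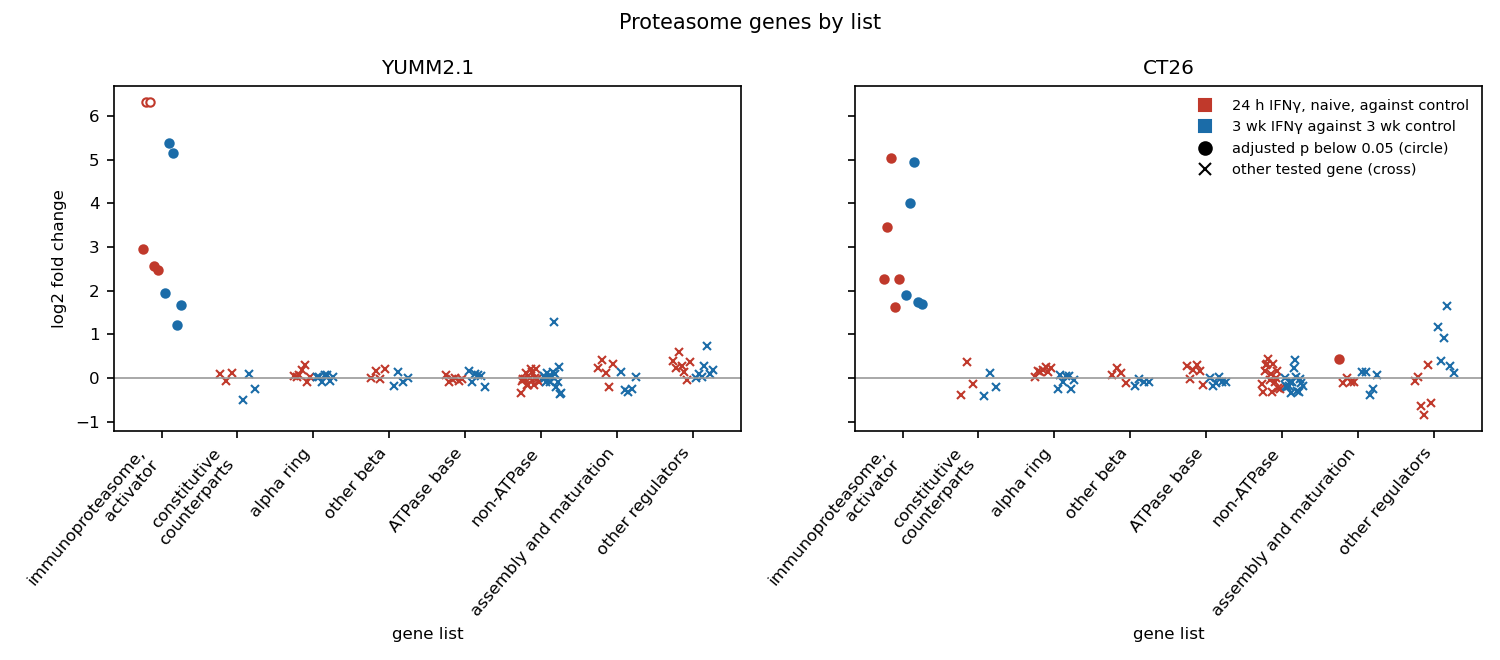
log2 fold change of every tested proteasome gene by list, for naive cells at 24 h against control (red) and for 3 weeks of IFNγ against control cultures of the same age (blue), in YUMM2.1 (left) and CT26 (right); circles passed the test at an adjusted p below 0.05, crosses did not, and open circles are fitted values against a control group with at most 3 counts in each library. The 5 immunoproteasome and activator genes stand apart from the other lists, in which Pomp in CT26 at 24 h (0.44) is the only circle. In that comparison 2.04% of all genes were called.

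The pattern over the 15 groups was compared with that of the 7810 genes tested in both lines, by Pearson's r of mean log2 CPM in each line, taking the smaller r of the lines. The groups share controls and depth, so these values are descriptive. Psmb8 and Psmb9 were most like H2-T22, a nonclassical MHC class I gene (r = 0.985 and 0.985 for Psmb8 and 0.987 and 0.986 for Psmb9, in YUMM2.1 and CT26). They were then like each other (0.993 and 0.983) and like Zbp1, a sensor of Z-form nucleic acids (0.974 and 0.975 for Psmb8). Psmb10 was most like Psme2 (0.997 and 0.991), Zbp1 (0.989 and 0.987) and Ube2l6, an ISG15-conjugating enzyme (0.986 and 0.985). Psme1 was most like Psme2 (0.989 and 0.990), the antiviral membrane protein gene Ifitm3 (0.990 and 0.987) and Psmb10 (0.989 and 0.981). Psme2 in turn was most like Psmb10, Psme1 and Ifitm3 (0.989 and 0.992). The neighbour Tap1 ranked at place 8 for Psmb8 (0.973 and 0.956) and at place 10 for Psmb9 (0.960 and 0.963). Irf1 ranked at place 123 for Psmb8 (0.683 and 0.792). Psmb5 and Psmb7 correlated negatively with Psmb10 (-0.49 and -0.62 for Psmb5, -0.53 and -0.26 for Psmb7), and Psmb6 positively (0.34 and 0.51).

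Tap1 and Tap2 and the MHC class I transactivator gene Nlrc5 were read alongside. Tap1 rose in naive cells at 24 h to 12.1 ± 6.07 CPM (SD, n = 3) from 0.396 ± 0.347 in YUMM2.1 (adjusted p = 6.95e-05). In CT26 it rose to 22.0 ± 7.11 from 2.59 ± 1.2 CPM (adjusted p = 1.81e-04). Tap2 rose to 8.75 ± 4.29 CPM in YUMM2.1, where all 3 controls were at 0 (adjusted p = 0.00129), and to 26.9 ± 12.3 from 6.89 ± 1.48 CPM in CT26 (adjusted p = 4.07e-04). Nlrc5 rose to 9.12 ± 2.9 from 0.182 ± 0.315 CPM in YUMM2.1 (adjusted p = 6.56e-04). In CT26 it was at 2.47 ± 1.09 against 0.198 ± 0.343 CPM and was not called by edgeR (adjusted p = 0.167). These values rest on few counts. The YUMM2.1 controls held 2 counts of Tap1 and 1 of Nlrc5 in all, and in CT26 Nlrc5 had 7 counts against 1.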

How the data were processed

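The 90 samples, triplicate experiments in 15 groups of each line, were profiled by 3′ digital gene expression. The authors quantified the reads with Salmon (0.13.1, per the labels, with mm10) and deposited 1 table of raw counts per gene, whose values are whole numbers. The study describes its replicates as independent biological ones, in general terms, and the labels do not say how the cultures of a group were separated. The study discarded samples of both lines, more of them from CT26, as outliers by principal component analysis. It does not name them in the text read here, and all 90 were used. The 8 genes, the gene lists and the tests were chosen with earlier results of these data known.

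Counts were analysed in R 4.3.3 with edgeR 4.0.16 (limma 3.58.1). Genes were filtered by filterByExpr on group, TMM factors were applied and quasi-likelihood tests (glmQLFit, glmQLFTest) were run on the 15 groups of a line in 1 fit, or on all 30 groups for contrasts between the lines. P-values were two-sided and adjusted by Benjamini-Hochberg over all genes tested, with a threshold of 0.05, and standard errors were derived from the fold change and its F statistic. Of 37 comparisons, 6 were added after the data had been seen. The script was tested on simulated data. All 8 genes were tested in every comparison, and in several of them values are given for only some of the 8. Other proteasome genes were named where called (at most 5, by adjusted p), and Tap1, Tap2, Irf1 and Nlrc5 as context. Another context gene and 1 marker are not reported here. No 2 replicates agreed within sampling noise (chi-square per gene 1.83 to 7.05). Alternatives were DESeq2 1.42.0, library totals, no filter, fits on the compared groups, the replicate block, omission of each replicate or of low-depth samples, the 0-week control, and other pseudocounts for the pair balance. Gene symbols matched 53668 of 53697 identifiers. Protein sequences were not used here.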

Additional observations from a re-analysis of the deposited data

Results flagged for a closer look

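The 24 h response of the 5 inducible genes differed between naive cells and cultures held for 3 weeks in IFNγ, by the test of the difference itself (edgeR quasi-likelihood test over all genes). In YUMM2.1 the fitted log2 difference, 3 weeks less naive, was -2.89 for Psmb10 (adjusted p = 2.79e-15), -2.40 for Psme1 (adjusted p = 5.22e-10) and -2.52 for Psme2 (adjusted p = 5.13e-16). For Psmb8 it was -6.61 (adjusted p = 8.07e-09) and for Psmb9 -6.25 (adjusted p = 1.04e-14), but these 2 sizes depend on the prior count, since untreated YUMM2.1 samples held at most 3 counts of either gene. In CT26 the difference was -3.87 for Psmb8 (adjusted p = 5.95e-09), -4.92 for Psmb9 (adjusted p = 1.13e-14; -5.84 without replicate 3), -2.17 for Psmb10 (adjusted p = 3.10e-14), -1.64 for Psme1 (adjusted p = 6.39e-08) and -2.12 for Psme2 (adjusted p = 5.94e-15). The 3-week groups without rechallenge each include 1 low-depth library, and all 5 differences were also called without it in both lines.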

How the results depend on the processing

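No result changed sign with a call under the alternatives run. The number of the 8 genes called moved by over 1.5 times as follows, and the cause was not tested. With library totals it became 1 (Psmb10) for 2 h of rechallenge after 1 week in CT26 and 2 (Psmb10 and Psme1) for the naive 24 h response between the lines, each 0 in the report. For the CT26 control cultures over 3 weeks, 1 in the report, it became 0 with no filter and 2 with only the compared groups, and was 0 without any 1 replicate. For 24 h after 1 week against naive 24 h in CT26, 2 in the report, it became 0 with only the compared groups and 0 to 2 without 1 replicate. Leaving out 1 replicate gave 1 to 3 of 5 for 24 h of rechallenge after 2 weeks in YUMM2.1, 3 to 5 of 5 in CT26 at 1 week against control and for 24 h of rechallenge after 1 week, 0 to 4 of 4 for 3 against 2 weeks in CT26, and 5 to 6 of 6 between the untreated lines. DESeq2 moved no such count by that much and called 5 more values of single genes.

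Over all genes, 62 were called in the median comparison, against 118 with no filter, 21 without replicate 1, 30 without replicate 2 and 55 without replicate 3. The replicate block kept all 37 member counts within 1.5 times, with 4 in place of 5 for 24 h of rechallenge after 2 weeks in YUMM2.1 and 5 in place of 4 for the same comparison and for 3 against 2 weeks in CT26. Deviations of samples sharing a replicate number correlated by -0.26 to 0.37 in YUMM2.1, against -0.32 to 0.38 for CT26, so the numbers were not taken to pair the samples. Of 90 pair balance changes, 8 moved beyond the SD with a pseudocount of 0.25 CPM and 10 with 4 CPM. Counts of 0 to 3 limit Psmb8 and Psmb9 in untreated YUMM2.1.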
